A study of Homo sapiens with 48 samples.

Results

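The comparison described here sets HK-2 cells exposed for 48 h to Fk against HK-2 cells exposed for 48 h to Ra. HK-2 is a human cell line, immortalised from epithelium of the renal proximal tubule. The 6 arrays, 3 for each compound, were chosen by the compound and time in their titles, and are 6 of the 48 arrays of the series. The labels call the 3 arrays of each group biological replicates, all of the same cell line in the same defined medium with EGF, insulin, hydrocortisone, transferrin and selenite. Vehicle-treated cells of the same set at 48 h (3 arrays) served both compounds as the control, and the same 3 kinds of culture at 12 h (3 arrays each) give the earlier time. The labels name the compounds only as Fk and Ra, and the sources used here state no dose, so whether doses were matched is unknown.

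As background, Fk and Ra are taken here, from the definition of the comparison and not from the labels, as drugs that bind the same intracellular protein, FKBP12 (gene FKBP1A), and then act on different enzymes. The complex with Fk inhibits calcineurin, a calcium-dependent phosphatase that controls NFAT transcription factors. The complex with Ra inhibits mTOR complex 1, a kinase that couples amino acids and growth factors to translation and growth. In textbook accounts mTORC1 raises translation of ATF4, a transcription factor for amino acid synthesis, amino acid transport and tRNA charging genes. ATF4 is also induced under stress of the endoplasmic reticulum (ER), where it works beside XBP1 and its activating enzyme IRE1 (gene ERN1). E2F factors control the genes of DNA replication.

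Values are log2 expression as deposited, centred on each array's median over the 11356 genes tested, so a difference of 1 is a doubling. A gene was called where limma, a linear model fitted to all 48 arrays, gave an adjusted p under 0.05 (Benjamini-Hochberg). One array stood apart before centring: replicate 2 of Ra had a median of 7.47 over these genes, against 8.17 to 8.34 in the other 17 arrays of the Fk and Ra set. After centring, the median of Fk minus Ra was -0.31 in genes of mean level under log2 4 and -0.01 in those at log2 8 to 10, and -0.02 and 0.00 without this array. Over all genes it was -0.09 with the array and -0.01 without it. Values without this array are given beside the results it changes. Arrays of Fk and Ra at 48 h with the same replicate number deviated together from their group means, with correlations of 0.10 to 0.28. Over the whole Fk and Ra set such correlations ran from -0.18 to 0.76 (mean 0.10, against -0.05 for other numbers). Counts from a fit that blocks on that number are therefore given beside those they change most. This block takes 1 shared effect per number over both times. All 13 epithelial marker genes were measured above the low-value filter, but only 6 of 23 proximal tubule markers were (GGT1, DPP4, DAB2, SLC4A4, PCK1 and PAX8), with AQP1, ANPEP, LRP2 and CUBN among the 17 that were not. None of 12 leukocyte markers passed, and the summed level of the 3 fibroblast markers that did (COL1A1, DCN and LUM) ran from 9.81 to 11.04 with Fk and from 10.30 to 11.22 with Ra.

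Promoter sequences are shown first, as examples from gene lists described below. These genes were picked because a known element lies before the start, and the length printed was set gene by gene. They are not typical: most members of the same lists with a promoter hold no match, as counted below. Whether the elements have a part in the differences between the compounds was not tested. The sequences are from RefSeq on GRCh38.p14, read 5′ to 3′ on the gene's strand and ending at the base before the transcription start, with the matched element in capitals. The letters searched, on either strand, were TGATGNAA for the composite element bound by ATF4 with a C/EBP partner, CCAAT and CCACG spaced by any 9 bases for the ER stress response element, and TTTGGCGC or TTTCCCGC for E2F. For ATF4, ASNS encodes asparagine synthetase (chr7:97872409-97872508, minus strand), AARS1 alanyl-tRNA synthetase (chr16:70289507-70289706, minus) and IARS1 isoleucyl-tRNA synthetase (chr9:92293698-92293757, minus).
ASNS: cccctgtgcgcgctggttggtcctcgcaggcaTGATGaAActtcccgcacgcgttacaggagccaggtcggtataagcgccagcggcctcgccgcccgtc
AARS1: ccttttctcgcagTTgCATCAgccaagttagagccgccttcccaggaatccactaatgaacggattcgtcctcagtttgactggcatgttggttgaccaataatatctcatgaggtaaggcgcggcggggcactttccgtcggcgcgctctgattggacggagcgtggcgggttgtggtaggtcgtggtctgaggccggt
IARS1: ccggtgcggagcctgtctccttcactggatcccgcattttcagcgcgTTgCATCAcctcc
For the ER element, HSPA5 encodes the chaperone BiP (chr9:125241344-125241443, minus) and XBP1 the transcription factor of the ER stress response (chr22:28800570-28800669, minus).
HSPA5: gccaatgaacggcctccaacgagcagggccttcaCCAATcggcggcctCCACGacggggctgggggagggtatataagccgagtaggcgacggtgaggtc
XBP1: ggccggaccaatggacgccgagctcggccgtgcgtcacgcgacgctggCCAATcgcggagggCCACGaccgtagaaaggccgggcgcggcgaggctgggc
For E2F, PCNA encodes the sliding clamp of DNA polymerase (chr20:5126623-5126722, minus), GINS2 a part of the replicative helicase (chr16:85688955-85689054, minus) and MCM6 a subunit of its motor (chr2:135876444-135876603, minus).
PCNA: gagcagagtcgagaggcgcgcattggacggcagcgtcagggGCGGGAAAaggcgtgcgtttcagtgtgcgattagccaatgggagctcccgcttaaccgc
GINS2: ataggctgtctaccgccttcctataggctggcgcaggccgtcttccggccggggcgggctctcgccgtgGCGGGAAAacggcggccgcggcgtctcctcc
MCM6: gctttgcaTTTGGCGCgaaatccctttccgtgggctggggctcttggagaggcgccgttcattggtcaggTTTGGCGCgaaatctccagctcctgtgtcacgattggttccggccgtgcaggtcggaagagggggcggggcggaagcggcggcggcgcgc

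At 48 h, 1568 of 11356 genes differed between Fk and Ra (13.8%), 713 of them higher with Fk (6.28%) and 855 lower with Fk (7.53%). More than 2-fold differences were seen for 301 of the higher and 273 of the lower genes. Of the 12 largest differences higher with Fk, 7 were in genes of the ATF4 and CHOP list described below (INHBE, ALDH1L2, CTH, SLC7A11, ERN1, ASNS and DDIT3) and 5 in genes of no list (ANK2, ITPKA, LURAP1L, C5AR1 and CAMTA2). Of the 12 largest lower with Fk, 6 were in genes of the DNA replication list (BLM, MCM10, CCNE2, CCNE1, ASF1B and CDT1) and 6 in genes outside it. Without Ra replicate 2, 535 genes were called (4.71%), 269 higher (2.37%) and 266 lower (2.34%), and 508 of them were among the 1568. The fit with the replicate block called 2862 genes, 1236 higher and 1626 lower. A smaller set of 271 genes (2.39%) was called with all arrays and also whichever of the 6 arrays was left out, 133 higher (1.17%) and 138 lower (1.22%) with Fk, and is called here the robust set. The name refers only to leaving out single arrays in the fit of 48 arrays. On the 6 arrays alone 0 genes were called. Genes given below that lost their call without Ra replicate 2, beyond those where this is said beside the value, are MTHFD2, RRM2, TYMS, CCNA2, CDK1, CCND2, MDM2, TRIB1, IGF1R, HSP90AA1, NFKBIA, GCLC, ME1, RRP12, FBL, BOK, KLF10 and SLC39A10, with adjusted p from 0.0508 to 0.208 there. Single arrays moved the total widely: 365 genes were called with Fk replicate 1 left out, 954 with Fk replicate 2 left out and 2431 with Ra replicate 1 left out. On the deposited values without centring, 1721 of 1962 called genes were higher with Fk. With quantile normalization 834 of 1521 were.

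Vehicle cells resembled Fk cells more than Ra cells in the genes that separated the compounds. In the robust set the vehicle mean was nearer to the Fk mean for 266 of 271 genes, and in all 1568 called genes for 1494, where 75.7% of all genes tested had a vehicle mean nearer to Fk. Fk against vehicle gave 0 called genes in limma, with 382 at an unadjusted p under 0.05, and Ra against vehicle gave 1931 (17%). With the replicate block these counts were 7 (5 higher and 2 lower with Fk) and 3269. Fk against vehicle gave 5 where the block was fitted on the 18 arrays of the set and 24 where it was fitted within set and time. The 2 contrasts share the vehicle arrays.

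The robust set and the gene lists differed in how often promoters held the elements shown above, in windows from 250 bases before to 50 after the start. Of 105 robust genes higher with Fk that have a promoter in the RefSeq table, 13 held the ATF4 composite letters (12.4%), against 0 of 115 robust genes lower with Fk and 2.79% of all tested genes with a promoter. The E2F letters were in 21 of the 115 lower genes (18.3%), 2 of the 105 higher genes (1.90%) and 4.74% of all. The ER element was in 2 of the 105 higher genes (1.90%) and 0 of the 115 lower genes. By list, the ATF4 letters were in 6 of 14 tRNA synthetase genes (42.9%) and 5 of 24 ATF4 and CHOP genes (20.8%), the ER element in 8 of 27 ER genes (29.6%, against 0.171% of all) and the E2F letters in 14 of 32 replication genes (43.8%) and 2 of 23 genes of G2 and mitosis (8.7%). The lists were drawn up by known function, but with earlier results of these data known. These shares therefore describe the lists and do not test Fk against Ra. Over all promoters of the table, tested or not, the shares were 4.46% for ATF4, 0.0916% for the ER element and 2.75% for E2F. A match describes letters in a window and not a bound site: CDC6, the loader of the replicative helicase, holds E2F letters and had a difference of 0.87 ± 0.43 (SE, adjusted p = 0.171), opposite in sign to its list. Of the ER genes with the element, HSPA5, XBP1 and ERO1B were called. CALR (0.12), CANX (0.19), PDIA6 (0.42), HSP90B1 (0.78) and CRELD2 (1.61) were not. Of ATF4 and CHOP genes with the letters, ASNS and CEBPG were called, and ATF3, CHAC1 and JDP2 were not. The synthetases with ATF4 letters were all called, and so were the replication genes with E2F letters except CDC6 and E2F1. Over the whole lists, with or without the letters, 64.7% of measured synthetases and 80.6% of measured replication genes were called. Whether genes with the letters were called more often than the others was not tested.

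**Figure D1:**
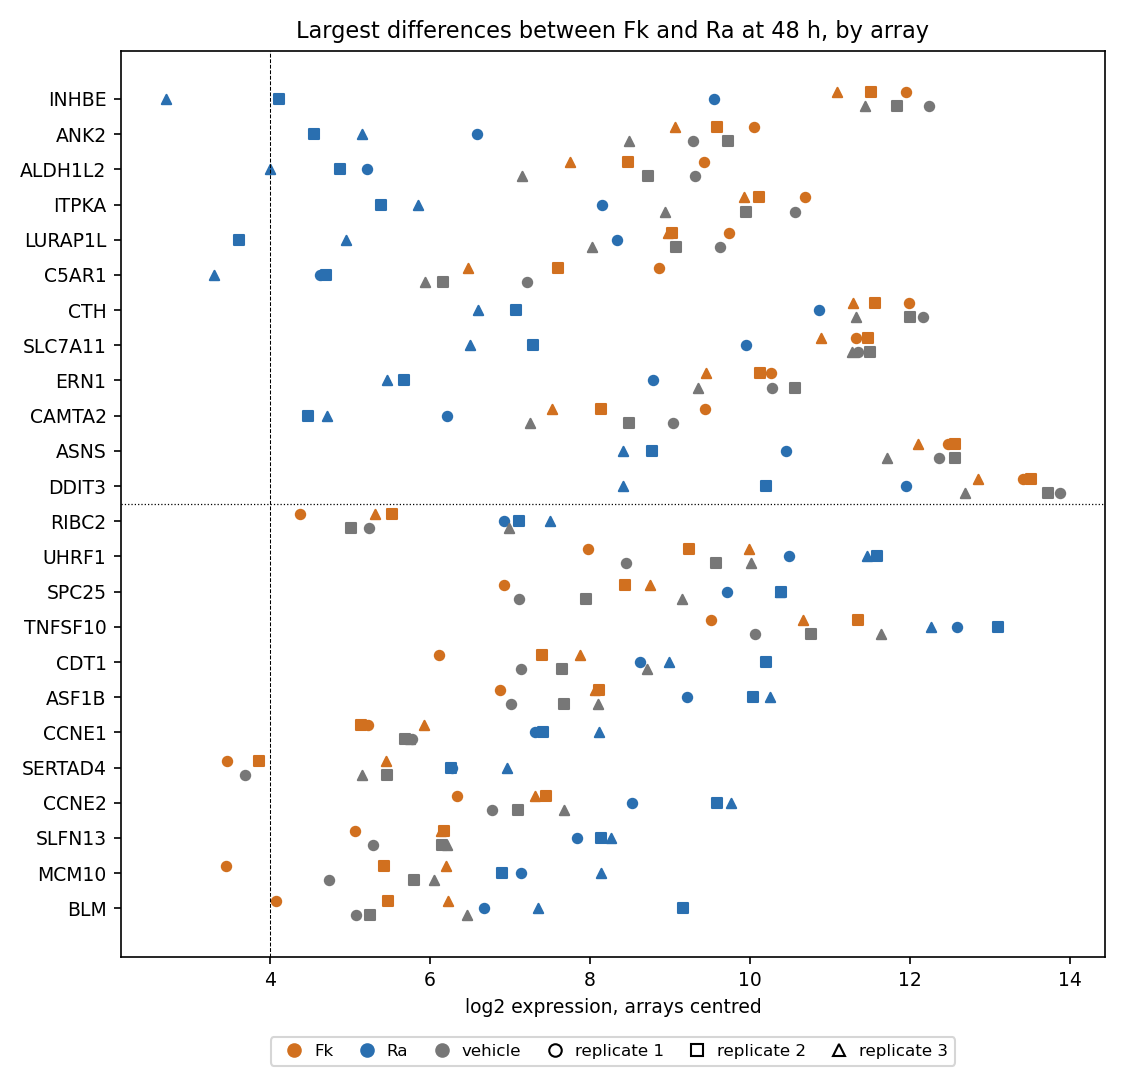
Log2 expression after centring in each array at 48 h, for the 12 largest called differences in each direction (Fk orange, Ra blue, vehicle grey, with a symbol for each replicate number); the dashed vertical line marks log2 4, the low-value filter. The genes were chosen as called with Fk and Ra values that do not overlap, so the gaps follow from the choice. The vehicle values lie mostly with those of Fk, as for INHBE, with Fk at 11.08 to 11.95 and Ra at 2.70 to 9.56.

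Genes controlled by ATF4 and its partner CHOP (gene DDIT3) were higher with Fk than with Ra. Of 30 measured members, 19 were called higher with Fk and 0 lower (63.3% called, against 13.8% of all genes). The median difference was 1.72 against -0.09 over all genes. Counts ran from 14 to 22 when any 1 of the 6 arrays was left out, and 13 members were in the robust set. The median difference was 0.92 between the arrays of replicate number 1, 1.86 between those of number 2 and 1.98 between those of number 3. Relative to vehicle, the list median was -0.02 in Fk and -1.73 in Ra.

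INHBE, the inhibin beta E subunit and a target of this response, had the largest difference of all genes. Its level was 11.95, 11.51 and 11.08 in the Fk arrays and 9.56, 4.12 and 2.70 in the Ra arrays, with vehicle at 11.84 ± 0.40 (SD, n = 3). The groups did not overlap, and replicate 1 of Ra lay far above the other Ra arrays. The difference was 6.06 ± 0.93 (SE, adjusted p = 9.95e-05), and 5.39 without Ra replicate 2, where Ra values this low sit near the bottom of the scale. SE values and adjusted p rest on a spread pooled over all 16 groups and do not measure that of Fk and Ra alone. For INHBE the SD was 3.62 in Ra and 0.43 in Fk. INHBE and many other genes named here were chosen as called with Fk and Ra values that do not overlap. For such genes the lack of overlap follows from the choice, and 27.8% of all genes had it. ALDH1L2, a mitochondrial enzyme of folate metabolism, was at 9.42, 8.48 and 7.75 with Fk and 5.22, 4.87 and 4.0 with Ra. All Ra values lay below all Fk values, by 3.85 ± 0.58 on average (adjusted p = 7.66e-05), and vehicle (8.40 ± 1.12) lay with Fk. CTH, the enzyme that makes cysteine from cystathionine, was at 11.99, 11.56 and 11.29 with Fk and 10.87, 7.07 and 6.60 with Ra.

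ASNS, which makes asparagine and whose promoter is shown above, was at 12.47, 12.56 and 12.10 with Fk and at 10.45, 8.77 and 8.41 with Ra. Fk and vehicle (12.21 ± 0.44) overlapped and Ra lay below both, with a difference between compounds of 3.17 ± 0.59 (8.98-fold, adjusted p = 7.16e-04). SLC7A11, the cystine importer, was at 11.33, 11.47 and 10.89 with Fk and 9.95, 7.29 and 6.50 with Ra, a difference of 3.32 ± 0.71. DDIT3 itself was at 13.42, 13.51 and 12.85 with Fk and 11.94, 10.20 and 8.42 with Ra. It was called with all arrays (3.07 ± 0.77, adjusted p = 0.00723) and lost in 1 of the 6 fits that leave out an array. ERN1, the ER stress sensor IRE1, was 3.30 ± 0.72 higher with Fk (adjusted p = 0.00281), with an SD of 1.86 in Ra and 0.43 in Fk.

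Serine and one-carbon enzymes of the list were higher with Fk too: PHGDH by 1.70, PSPH by 1.55, SHMT2 by 1.37 and MTHFD2 by 1.14. TRIB3, a pseudokinase induced by CHOP, was higher by 1.72 and CEBPG, a C/EBP partner of ATF4, by 2.15. The ATF4 transcript was at 13.16, 13.43 and 13.30 with Fk and 12.79, 12.81 and 11.86 with Ra. Its groups did not overlap, but the difference of 0.81 ± 0.27 (adjusted p = 0.0395) missed the threshold without Ra replicate 2 (0.98, adjusted p = 0.0521). Of the 11 members not called, ATF3 had a difference of 2.89 (adjusted p = 0.0996) and CHAC1 of 2.44 (0.0602), while VLDLR (0.02), KLHL24 (-0.09) and ATF5 (-0.21) lay near 0.

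Cytosolic aminoacyl-tRNA synthetases, which charge tRNAs with amino acids, were higher with Fk for 11 of 17 measured enzymes and lower for 0. This was 64.7% called, against 13.8% of all genes. The median difference was 0.64 with all arrays and 0.72 without Ra replicate 2, where the count was again 11. Between arrays of the same number it was 0.78, 0.58 and 0.67, a narrower spread than for the ATF4 and CHOP list. AARS1 was at 12.30, 11.69 and 11.20 with Fk and 10.40, 9.34 and 9.47 with Ra (1.99 ± 0.31, adjusted p = 1.11e-04). WARS1, CARS1, GARS1 and YARS1 differed by 1.83, 1.78, 1.76 and 1.53. IARS1 differed by 0.82. The members not called were FARSA (0.50), VARS1 (0.37), KARS1 (0.06), FARSB (0.02), HARS1 (-0.12) and RARS1 (-0.28). The enzymes of one family thus covered a range from -0.28 to 1.99.

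Amino acid transporters were fewer among the calls: 3 of 16 were higher and 2 lower, with 2 higher and 0 lower without Ra replicate 2. With all arrays 31.2% of the list was called, against 13.8% of all genes. SLC3A2, the heavy chain that pairs with SLC7A11, was at 11.88, 11.40 and 10.51 with Fk and 10.12, 9.21 and 8.36 with Ra. It was called with all arrays (2.04 ± 0.60, adjusted p = 0.0201) and not without Ra replicate 2 (adjusted p = 0.0759). SLC7A1, the cationic amino acid carrier, was higher by 0.91 ± 0.25 (adjusted p = 0.0121). With the block 7 transporters were higher and 2 lower. Leaving out Fk replicate 1 or Fk replicate 2 left 1 higher, and leaving out Fk replicate 3 or Ra replicate 1 gave 5 and 6 higher.

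ER chaperones and proteins of ER-associated degradation were higher with Fk for 10 of 30 measured members and lower for 0. This was 33.3% called, against 13.8% of all genes, and the median difference was 0.79. HSPA5 was at 15.58, 15.46 and 14.65 with Fk and at 14.41, 13.80 and 13.60 with Ra, and vehicle was 15.29 ± 0.64. The lowest Fk value lay above the highest Ra value, by 1.29 ± 0.29 on the fitted means (adjusted p = 0.00357), and the call held whichever array was left out. XBP1 was at 11.12, 11.19 and 10.62 with Fk and 10.26, 9.10 and 9.47 with Ra (1.36 ± 0.24, adjusted p = 4.48e-04), although another of its probe sets had the other sign. ERO1B, an oxidase of ER folding, had the largest difference of the list, at 8.67, 7.38 and 5.37 with Fk and 5.05, 3.57 and 3.72 with Ra. Its Fk values spread over more than 3 log2 units, and the lowest lay just above the highest Ra value (3.03 ± 0.76, adjusted p = 0.00760; 0.0559 without Ra replicate 2). DNAJC3, an inhibitor of the kinase PERK, was higher by 2.37 ± 0.54, HERPUD1 by 1.98 and SEL1L, a scaffold of the degradation complex, by 1.56.

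The ER list depended on the replicate number. Its median difference was 1.45 between the arrays of number 1, 0.81 for number 2 and 0.04 for number 3. The Ra arrays had alike list medians relative to vehicle, at -0.72, -0.64 and -0.75, while the Fk arrays were at 0.73, 0.16 and -0.70 and the vehicle arrays at 0.64, 0.05 and -0.75. Thus number 3 of Fk and of vehicle lay with the Ra arrays. Counts of members called were 2 without Fk replicate 1, 22 without Fk replicate 3, 5 without Ra replicate 2 and 19 with the replicate block. Among the members not called, CALR differed by 0.12, P4HB by 0.06, CANX by 0.19 and PDIA3 by 0.38.

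**Figure D2:**
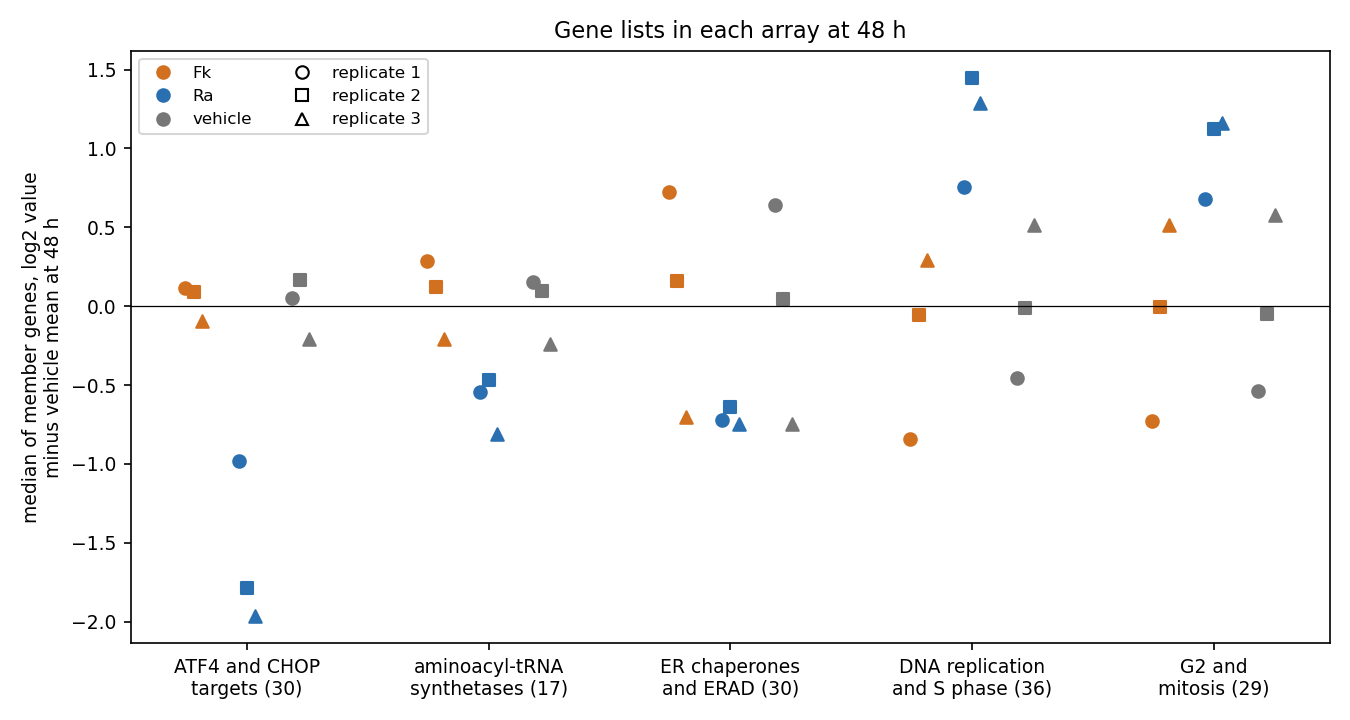
Median over the members of each list, as log2 value minus the mean of the 3 vehicle arrays, in each array at 48 h (Fk orange, Ra blue, vehicle grey; circles, squares and triangles are replicates 1, 2 and 3; member counts in parentheses). The Ra arrays lie below all Fk and vehicle arrays for ATF4 and CHOP targets (-0.98 to -1.97) and above them for DNA replication (0.75 to 1.45), while for ER chaperones the third Fk and vehicle arrays (-0.70 and -0.75) reach the Ra level.

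DNA replication and S phase genes were lower with Fk than with Ra. Of 36 measured members, 29 were called lower and 0 higher (80.6% called, against 13.8% of all genes). The median difference was -1.46 (-1.30 without Ra replicate 2). The count was 20 without Ra replicate 2, 15 without Fk replicate 1 and 34 with the replicate block, and 15 members were in the robust set. Between arrays of the same number the median was -1.63, -1.49 and -1.09. Relative to vehicle it was -0.25 in Fk and 1.16 in Ra. In bulk RNA a smaller share of cells in S phase and less of these transcripts per cell cannot be told apart.

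CCNE1, cyclin E1, which starts S phase with CDK2, was at 5.23, 5.14 and 5.93 with Fk and 7.31, 7.42 and 8.11 with Ra. Vehicle was 5.74 ± 0.05, within the Fk range, and the difference between compounds was -2.18 ± 0.25 (4.53-fold, adjusted p = 7.44e-07). CCNE2 was at 6.34, 7.46 and 7.31 with Fk and 8.53, 9.60 and 9.77 with Ra (-2.26 ± 0.40). Both cyclins were in the robust set. MCM10, which activates the replicative helicase, was at 3.46, 5.42 and 6.20 with Fk and 7.14, 6.91 and 8.14 with Ra (-2.37 ± 0.48, adjusted p = 0.00153). The lowest Fk value is under the low-value filter, so the size of this difference is less certain than its sign.

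The helicase subunits MCM2 to MCM7 were all called, with differences from -1.74 (MCM5) to -1.45 (MCM6). MCM7 had the smallest adjusted p of these (6.34e-05). GINS2 differed by -1.81, GINS1 by -1.56 and PCNA by -1.36. CDT1, which loads the helicase at origins, was at 6.12, 7.40 and 7.88 with Fk and 8.63, 10.20 and 8.99 with Ra (-2.14 ± 0.46, adjusted p = 0.00213). Nucleotide supply genes were lower too: RRM2, of ribonucleotide reductase, by -1.96 and TYMS, thymidylate synthase, by -1.18. The histone chaperones CHAF1A and ASF1B differed by -1.60 and -2.15, and the helicase BLM by -2.47 ± 0.50 (-1.75 without Ra replicate 2). The 7 members not called were RFC2, RFC5, PRIM1, GINS4, CHAF1B, E2F1 and CDC6, and CDC6 was the only measured member with a positive difference.

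Genes of G2 and mitosis were lower with Fk for 18 of 29 members and higher for 0 (62.1% called, against 13.8% of all genes). The median was -1.09 and all 29 differences were below 0. KIF11, a spindle motor, was at 7.45, 8.74 and 9.18 with Fk and 9.32, 10.34 and 10.46 with Ra. The highest Fk value lay just under the lowest Ra value, and the difference was -1.58 ± 0.36 (adjusted p = 0.00369). CCNA2, cyclin A2, was at 8.23, 9.26 and 10.15 with Fk and 10.25, 10.61 and 10.93 with Ra (-1.38 ± 0.37, adjusted p = 0.0114). BUB1B, a spindle checkpoint kinase, differed by -1.26 and CDK1 by -1.25. No member was in the robust set: 4 were called without Ra replicate 2, 7 without Ra replicate 3, 11 without Fk replicate 2 and 0 without Fk replicate 1. Without centring 7 were called. With the replicate block 28 were.

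Both cell cycle lists also moved with the replicate number within Fk and vehicle. For DNA replication the Fk arrays were at -0.84, -0.06 and 0.29 relative to the vehicle mean and the vehicle arrays at -0.46, -0.01 and 0.52, in the order of replicates 1, 2 and 3. The Ra arrays were at 0.75, 1.45 and 1.29, above every Fk and vehicle array. What the replicate number stands for is not in the labels, and its part in these lists was not tested beyond the block.

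Around the G1 to S step, 5 of 20 cyclin and inhibitor genes were lower with Fk and 1 higher (30% called, against 13.8% of all genes). The lower members were CCND3, CDK2, SKP2, CCNE1 and CCNE2. CCNE1 and CCNE2 are also in the DNA replication list, so they are not separate evidence from it. SKP2, which directs degradation of the inhibitor p27, was at 7.58, 7.45 and 8.56 with Fk and 9.02, 9.59 and 10.25 with Ra (-1.76 ± 0.39, adjusted p = 0.00293). CDC25A, the phosphatase that activates CDK2, is outside this list. It was at 5.37, 5.40 and 5.17 with Fk, near vehicle (5.63 ± 0.04), and at 6.72, 7.38 and 7.77 with Ra (-1.98 ± 0.22, adjusted p = 7.44e-07). The higher member of the list was CCND2 (1.45 ± 0.48, adjusted p = 0.0383). It lost its call in 5 of the 6 fits that leave out an array and has a probe set of the other sign. The inhibitor CDKN1A had a difference of 0.81 ± 0.42 (adjusted p = 0.185), with Fk at 12.31, 11.69 and 11.74 and Ra at 11.30, 11.11 and 10.91. With the block its adjusted p was 0.0224. CDKN1B differed by -0.16 and CCND1 by -1.44 (adjusted p = 0.107).

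Transcripts of FKBP1A, MTOR and its partners RPTOR and RICTOR, and the catalytic subunits of calcineurin did not pass the test. FKBP1A, the shared binding protein, was at 12.89, 12.56 and 12.76 with Fk and 12.92, 13.37 and 12.91 with Ra. Its values did not overlap, yet the difference was -0.33 ± 0.18 (adjusted p = 0.206), and 27.8% of all genes had values that did not overlap. MTOR differed by -0.31 ± 0.16 (adjusted p = 0.201), RPTOR by -0.12 and RICTOR by 0.11. The calcineurin catalytic subunit PPP3CA differed by 0.09 ± 0.13 and PPP3CB by -0.53 ± 0.21 (adjusted p = 0.0808, and 0.0353 with the block). These tests do not show equal levels: the 95% interval of the FKBP1A difference ran from -0.68 to 0.03 and that of MTOR from -0.64 to 0.02.

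RCAN1, a calcineurin inhibitor whose transcription calcineurin and NFAT drive, was at 9.11, 9.35 and 7.97 with Fk and 8.11, 7.75 and 7.55 with Ra. The groups overlapped, through the third Fk array, and vehicle was 8.96 ± 0.14. The difference was 1.01 ± 0.27 (adjusted p = 0.0107), and 0.98 with adjusted p = 0.0531 without Ra replicate 2. PPP3R1, the regulatory subunit of calcineurin, was higher with Fk by 1.53 ± 0.45 (adjusted p = 0.0202; 0.154 without Ra replicate 2), and another of its probe sets had the other sign. These were the 2 called of 17 calcineurin, NFAT and RCAN genes (11.8%, under the 13.8% of all genes). Leaving out replicate 2 or 3 of Ra, or replicate 1 or 2 of Fk, ended both calls. With the block 3 of the list were higher and 3 lower, and without Ra replicate 1 these counts were 2 and 3. Among 13 FK506-binding proteins the share called was 15.4%, near the 13.8% of all genes. FKBP14, of the ER, was higher with Fk (1.54 ± 0.39, adjusted p = 0.00851). FKBP9 was lower (-0.82 ± 0.20, adjusted p = 0.00673, and 0.0622 without Ra replicate 2).

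Of 33 genes of the mTOR complexes and their regulators, 3 were higher with Fk and 0 lower (9.09%, under the 13.8% of all genes), and all 3 were in the robust set. In textbook accounts all 3 restrain growth signalling. SESN2, a leucine sensor that restrains mTORC1, was at 10.93, 10.81 and 9.97 with Fk and 9.67, 7.28 and 7.38 with Ra (2.46 ± 0.39, adjusted p = 1.30e-04). DDIT4, which acts through the TSC complex, was at 13.58, 13.68 and 13.84 with Fk and 13.02, 11.82 and 11.24 with Ra (1.68 ± 0.37, adjusted p = 0.00266). GRB10, an adaptor phosphorylated by mTORC1, was at 11.01, 10.74 and 10.78 with Fk and 9.69, 9.04 and 8.67 with Ra (1.71 ± 0.31, adjusted p = 4.48e-04). SESN2 and DDIT4 are also in the ATF4 and CHOP list, so they are not separate evidence from it. With the block, 7 of the list were higher and 2 lower, and without centring 9 were higher. Leaving out Fk replicate 3 gave 5 higher and leaving out Ra replicate 1 gave 6, each with 2 lower.

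The eIF4E-binding proteins, substrates of mTORC1 that block cap-dependent translation, differed in opposite directions. EIF4EBP1 was at 10.82, 10.44 and 10.29 with Fk and 9.36, 9.55 and 9.21 with Ra (1.15 ± 0.26, adjusted p = 0.00371). EIF4EBP2 was at 8.60, 8.87 and 8.90 with Fk and 9.40, 9.95 and 9.77 with Ra (-0.92 ± 0.15, adjusted p = 2.42e-04). Both genes were chosen among called list members with values that do not overlap. RPS6KB1, the S6 kinase, was 0.58 ± 0.24 higher (adjusted p = 0.0962; 0.0328 with the block). Of 31 translation factors 3 were higher and 1 lower (12.9%, near the 13.8% of all genes). Higher calls were 0 without Fk replicate 1, 1 without Fk replicate 2 or Ra replicate 3, and 5 without Fk replicate 3 or with the block, and lower calls ran from 1 to 4 when 1 array was left out. Of 34 cytosolic ribosomal protein genes 1 was called, lower with Fk, and all 34 differences were below 0 (-0.36 to -0.14). This count was 26 without Ra replicate 1, 10 with the block, 5 without Fk replicate 3, 3 without Ra replicate 3 and 0 where Fk replicate 1, Fk replicate 2 or Ra replicate 2 was left out, without centring or with quantile normalization. The median difference was -0.25 with all arrays and -0.06 without Ra replicate 2.

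In the list of hypoxia and glycolysis genes, 6 of 28 were higher with Fk and 0 lower (21.4% called, against 13.8% of all genes). The median was 0.05, and 4 were higher where replicate 2 or 3 of Ra or replicate 1 of Fk was left out. The enzymes of the glycolytic chain itself were mostly near 0, with PGK1 at 0.00, ALDOA at -0.11 and LDHA at -0.17. HK2, hexokinase of the first step, was at 9.50, 9.55 and 9.71 with Fk and 8.38, 8.16 and 8.34 with Ra (1.29 ± 0.25, adjusted p = 0.00102). The spread within each compound was small, and vehicle (8.84 ± 0.22) lay between. SLC2A1, the glucose transporter GLUT1, was at 9.73, 9.86 and 10.33 with Fk, 8.53, 8.36 and 8.15 with Ra and 8.81 ± 0.07 in vehicle (1.62 ± 0.40, adjusted p = 0.00704). NDRG1, a hypoxia-induced gene, was at 12.07, 11.37 and 11.22 with Fk and 9.86, 9.36 and 9.09 with Ra, with vehicle at 10.49 ± 0.54 (2.12 ± 0.43, adjusted p = 0.00139). VEGFA was at 12.29, 12.28 and 12.30 with Fk and 11.97, 10.79 and 9.89 with Ra (1.41 ± 0.40, adjusted p = 0.0157; 0.0700 without Ra replicate 2).

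HK2, SLC2A1 and NDRG1 are 3 of the 5 robust genes whose vehicle mean lay nearer to Ra than to Fk. The others, named after their values were seen, are TRAPPC11, of vesicle transport (9.34 with Fk, 8.78 with Ra and 9.04 in vehicle), and CDC42EP4, a CDC42 effector (7.75, 8.75 and 8.45). In all 5 the vehicle mean lay between the compounds. Between arrays of the same number, Fk minus vehicle was 1.00, 0.96 and 1.23 for NDRG1, 0.84, 1.08 and 1.56 for SLC2A1 and 0.53, 0.57 and 1.13 for HK2. These 3 genes were picked as higher with Fk than with Ra and with a vehicle mean nearer to Ra. A positive mean of Fk minus vehicle therefore follows from the choice. In the fit of 48 arrays none of these 3 passed the test of Fk against vehicle, with the block (adjusted p = 0.173, 0.124 and 0.308) or without it (1.00 each). With the block on the 18 arrays of the set SLC2A1 passed (adjusted p = 0.0321). PDK1, a kinase that shuts the pyruvate dehydrogenase complex, was higher with Fk (1.17 ± 0.20, adjusted p = 3.24e-04). Its relative PDK4 was lower, at 8.80, 8.54 and 9.85 with Fk and 12.11, 10.45 and 10.94 with Ra (-2.10 ± 0.66, adjusted p = 0.0301), a call lost in 4 of the 6 fits that leave out an array.

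Several of the largest differences were in genes of no list. ANK2, the membrane adaptor ankyrin-B, was at 10.05, 9.59 and 9.06 with Fk and 6.59, 4.56 and 5.15 with Ra, with vehicle at 9.16 ± 0.63. The groups lay more than 2 log2 units apart, and the difference was 4.14 ± 0.44 (17.6-fold, adjusted p = 4.34e-07). CAMTA2, a calmodulin-binding transcription activator, was at 9.43, 8.14 and 7.53 with Fk and 6.21, 4.48 and 4.72 with Ra (3.23 ± 0.53). ITPKA, an inositol trisphosphate kinase regulated by calmodulin, was at 10.69, 10.11 and 9.92 with Fk and 8.15, 5.39 and 5.85 with Ra (3.78 ± 0.85, adjusted p = 0.00346). BEX2 was higher by 2.91 ± 0.41. C5AR1, the receptor of complement C5a, was higher by 3.44 ± 0.88 (adjusted p = 0.00876). LURAP1L was higher by 3.61 ± 0.78 with all arrays and 2.61 without Ra replicate 2 (adjusted p = 0.0531).

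Among the lower genes outside the replication list, TNFSF10, the death ligand TRAIL, was at 9.51, 11.36 and 10.67 with Fk and 12.59, 13.10 and 12.26 with Ra. Vehicle (10.82 ± 0.79) lay with Fk, and the difference was -2.14 ± 0.36 (4.40-fold, adjusted p = 3.17e-04). The death receptor FAS was lower as well, at 9.68, 10.02 and 10.27 against 10.95, 11.14 and 11.06 (-1.07 ± 0.20, adjusted p = 8.92e-04). SLFN13, a ribonuclease that cuts tRNA, differed by -2.29 ± 0.38, UHRF1, which maintains DNA methylation, by -2.11 ± 0.44, and SPC25, of the kinetochore, by -2.12 ± 0.51. SERTAD4 differed by -2.24 ± 0.48, with Fk at 3.47, 3.86 and 5.45. RIBC2 differed by -2.11 ± 0.63 (adjusted p = 0.0224), a call lost without Ra replicate 2 (adjusted p = 0.0754).

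The remaining lists held few calls, at shares of 0% to 25%, where 13.8% of all genes were called. Of 25 matrix and TGF-beta genes, LOX, a collagen crosslinker (2.50), and SNAI2 (2.24) were higher and TGFBR1 (-0.80) and TIMP1 (-0.46) lower, and without Ra replicate 2 each of these 4 missed the threshold. Of 20 p53 targets SESN2, GADD45A (1.64) and MDM2 (0.55) were higher and FAS lower, with 1 to 4 higher when 1 array was left out. Of 27 FOXO and insulin feedback genes GRB10 was higher and 4 were lower, among them TRIB1 (-1.49) and IGF1R (-1.0), with 0 to 4 lower when 1 array was left out. Of 16 heat shock genes HSPE1 (-0.80), HSP90AA1 (-0.63) and DNAJA1 (-0.58) were lower, with 1 to 4 lower when 1 array was left out, and 1 was higher. Interferon-stimulated genes gave 1 call of 23, OAS3 (-1.32 ± 0.27). Cytokines and NF-kB targets gave 1 of 22, the inhibitor NFKBIA (-1.23), a call lost whichever of the 6 arrays was left out, without centring and with quantile normalization, and fatty acid synthesis genes 0 of 16 in limma. Of 22 kidney injury markers 1 was called, and HAVCR1 (KIM-1) differed by -0.52 ± 0.39 (adjusted p = 0.384) and CLU, clusterin, by 0.03 ± 0.28 (0.950). With the block the lower counts were 6 for matrix genes, 5 for heat shock genes, and 3 each for interferon-stimulated genes and kidney injury markers, and 6 p53 targets were higher.

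Metabolic, organelle and survival genes were called here and there, in both directions. Of 19 NRF2 targets 3 were higher, SLC7A11, GCLC of glutathione synthesis (1.02 ± 0.35) and ME1 (0.48), and 1 was lower. Without Fk replicate 1, Fk replicate 2, Ra replicate 2 or Ra replicate 3 the NRF2 counts were 1 higher and 0 lower, without Fk replicate 3 or Ra replicate 1 they were 3 and 3, and with the block 4 and 3. Of 18 cholesterol genes HSD17B7 was higher (0.67 ± 0.21) and the regulator SREBF2 lower (-0.68 ± 0.20), and neither passed without Ra replicate 2. Of 30 lysosome and autophagy genes 3 were higher, among them WIPI1 (1.45) and UVRAG (0.80), and 2 lower, the transcription factor MITF (-1.22) and the sterol carrier NPC2 (-0.61), all 4 of which missed the threshold without Ra replicate 2. Of 26 ribosome biogenesis genes RRP12 was higher (1.09) and the methylase FBL lower (-0.51). Of 24 BCL2 family and death receptor genes BCL2L2 was higher (1.01 ± 0.22) and TNFSF10, FAS and BOK (-0.62) lower. Of 26 respiratory chain genes 2 were lower, of 22 immediate early genes 2, among them KLF10 (-1.10), of 10 metallothionein and zinc genes 1, the zinc importer SLC39A10 (-1.26), and of 16 drug transporter genes 1, with 0 higher in each of these lists. Without Fk replicate 1, Ra replicate 2 or Ra replicate 3 each of these 4 lists had 0 calls. With the block the lower counts were 7, 2, 3 and 3 in the same order, with 1 immediate early gene higher, and the respiratory chain had 6 without Ra replicate 1 and 4 without Fk replicate 3. The block also gave 2 higher and 3 lower cholesterol genes, 5 higher lysosome and autophagy genes, 6 higher ribosome biogenesis genes and 3 higher BCL2 family genes, and 5 cholesterol genes were lower without Fk replicate 3. Without centring 10 ribosome biogenesis genes and 6 each of the lysosome and BCL2 lists were higher.

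**Figure D3:**
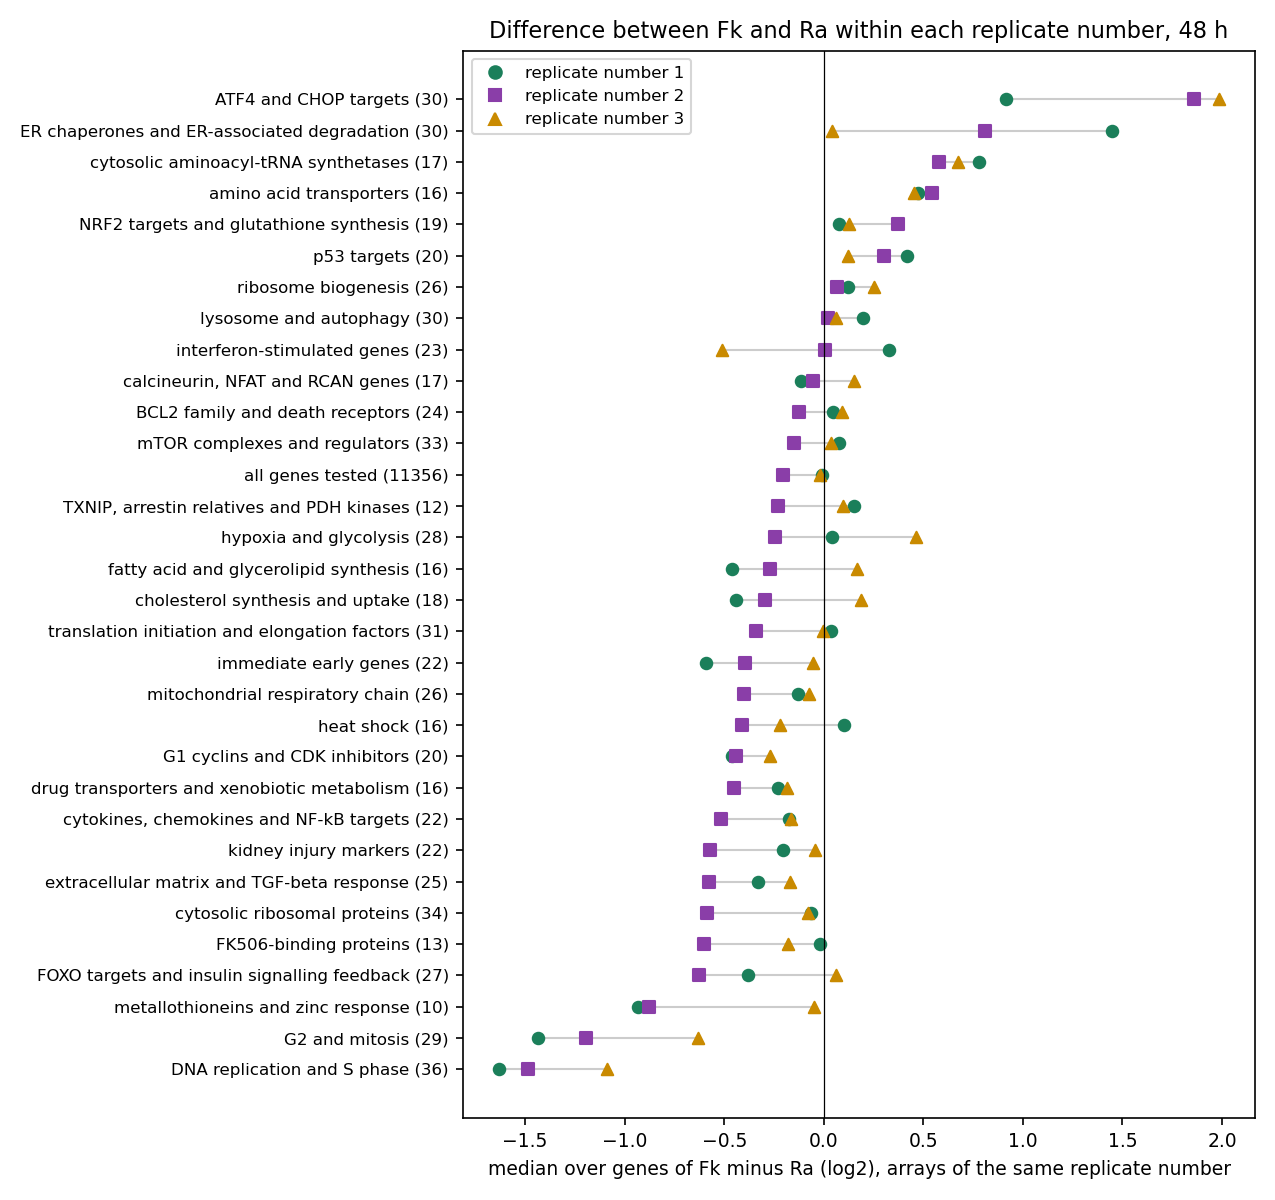
Median over the genes of each list of Fk minus Ra (log2) at 48 h, taken between arrays of the same replicate number (circle 1, square 2, triangle 3; grey bars join the lowest and highest; member counts in parentheses). ATF4 and CHOP targets (0.92 to 1.98) and DNA replication (-1.63 to -1.09) keep their sign in all 3, ER chaperones range from 0.04 to 1.45, and number 2 lies lowest for all genes tested (-0.20).

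At 12 h, 1 gene was called between the compounds in limma (0.00881%), with 1053 at an unadjusted p under 0.05. It was KLHL24, a ubiquitin ligase adaptor, at 7.45 with Fk, 9.39 with Ra and 7.33 in vehicle (-1.94 ± 0.29, adjusted p = 0.00116), and at 48 h its difference was -0.09 ± 0.29. Median differences at 12 h were 0.32 for ATF4 and CHOP targets, 0.19 for tRNA synthetases, 0.01 for ER genes and -0.06 for DNA replication, against 1.72, 0.64, 0.79 and -1.46 at 48 h. The difference between the times was itself tested, and 158 genes passed (1.39%), with 9 without Ra replicate 2 and 1185 with the replicate block. Of the DNA replication list 8 of 36 passed, among them CCNE1, CCNE2, MCM10 and PCNA, and of the ATF4 and CHOP list 3 of 30, among them ALDH1L2. INHBE, with 1.83 at 12 h, and SESN2, with 1.37, did not pass this test (adjusted p = 0.0810 and 0.281).

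**Figure D4:**
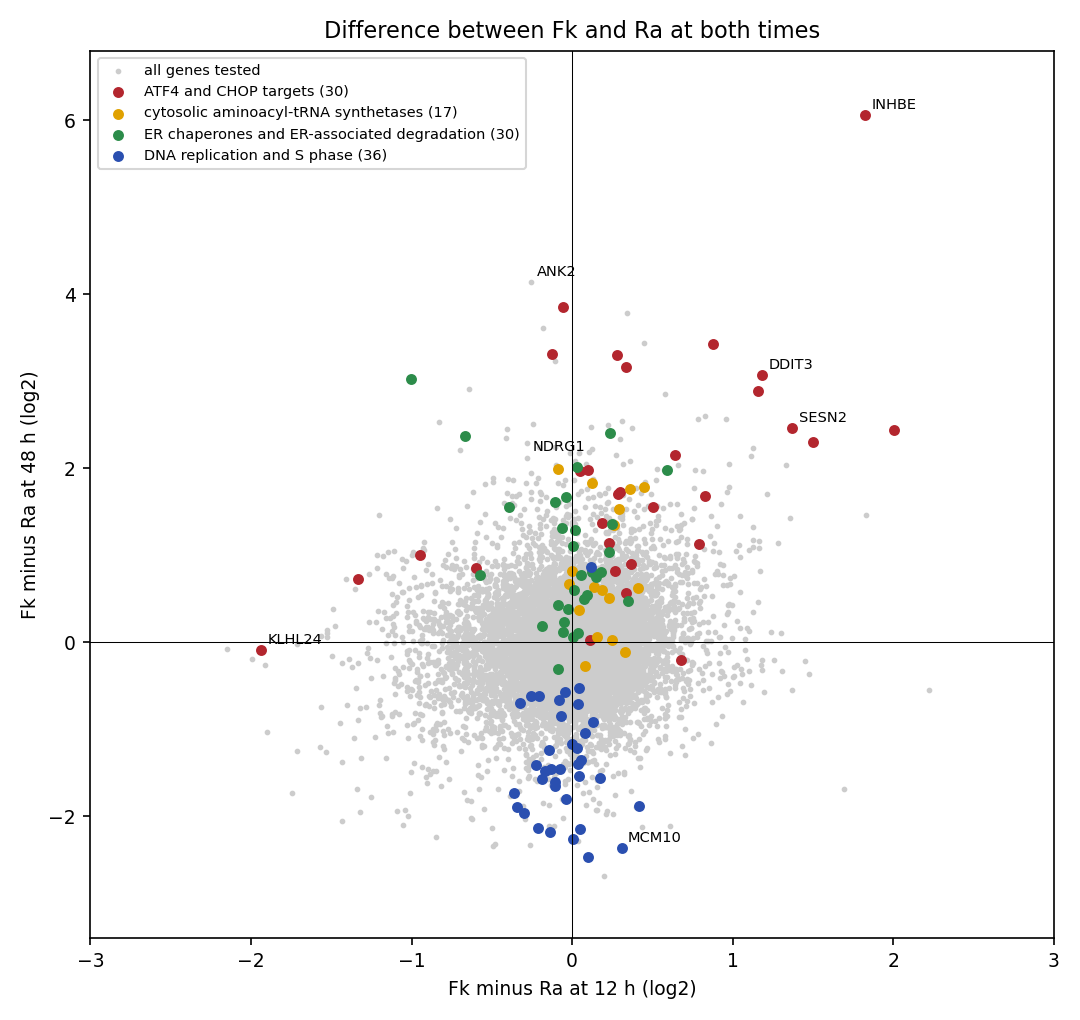
Fk minus Ra (log2) at 12 h (horizontal) and at 48 h (vertical) for each of 11356 genes, with 4 lists coloured; the vertical axis spans a wider range. Members of the DNA replication list lie near 0 at 12 h and mostly below -0.50 at 48 h, and KLHL24 lies at -1.94 and -0.09.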

How the data were processed

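The deposited values are log2 expression that the authors computed by GCRMA (a name taken from the submitters' processing notes; its version and which arrays were processed together are not stated there). Affymetrix probe sets (54675) were named by the platform annotation: 62 controls, 41091 with 1 symbol, 1801 with several and 11721 unlisted, the last 2 kinds left out. Probe sets above log2 4 in at least 3 of 48 arrays were kept (20960), the one of highest mean represented each of 11356 genes, and arrays were centred on their median over these. Centred values keep a common offset. Group means of all 48 arrays in 16 groups were fitted with limma 3.58.1 (R 4.3.3; lmFit, eBayes, two-sided, Benjamini-Hochberg); SE values come from this fit and SD values from 3 arrays. The number of arrays limits precision. In a simulation with 11356 genes and 200 changed, 69% were recovered at a log2 change of 1 and 98% at 2, with 11 false calls. Its noise was independent, with 1 SD per gene. It held no shared replicate deviations, no shifted Ra replicate 2 and no unequal group spreads, so these figures do not give the recovery on the real arrays. Same-numbered Fk and Ra arrays at 48 h had correlated deviations from their group means (0.273, 0.104 and 0.283). No label says what a number marks, so the main fit holds no block. The differences, SE values, calls and robust set come from that unpaired fit, and fits with a block are alternatives. The genes named are the 12 largest called, non-overlapping differences in each direction, up to 4 such members of each list, 20 fixed genes and the 4 largest changes in difference between times in each direction. Other list members are given to complete the account of their lists. The compared arrays, the 31 gene lists and these rules were chosen with earlier results of these data known. Alternatives changed the centring, filter, probe set rule, arrays in the fit, weights, variance trend and block, and left out each array.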

Additional observations from a re-analysis of the deposited data

Results flagged for a closer look

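The difference between Fk and Ra was itself different at 48 h and at 12 h for 158 genes in limma's test of that change (adjusted p under 0.05). With Ra replicate 2 of 48 h left out, 9 genes passed. Of the genes named here, the change (48 h minus 12 h, log2) was positive for ANK2 (4.39), ERO1B (4.03), ALDH1L2 (3.91), BEX2 (3.55), CAMTA2 (3.34), DNAJC3 (3.03), NDRG1 (2.41), AARS1 (2.08) and PDK1 (1.26). It was negative for MCM10 (-2.68), SLFN13 (-2.33), CCNE2 (-2.27), CDC25A (-2.23), ASF1B (-2.20), CCNE1 (-2.04), HSPE1 (-1.02), EIF4EBP2 (-0.99) and DNAJA1 (-0.94). HSPE1, a mitochondrial co-chaperone, and DNAJA1, a cytosolic one, were higher with Fk by 0.21 and 0.36 at 12 h without passing the test, and lower with Fk at 48 h.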

How the results depend on the processing

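No named gene reversed its sign while called in any alternative, and 91 of 103 named genes were called with all arrays. Of these, 72 to 91 kept the call under the changes of centring, filter, probe set rule, weights, trend, block or the 18 arrays of the Fk and Ra set, and 42 to 88 when 1 array was left out. The total of 1568 was 9563 with no filter on low values (1180 higher and 8383 lower with Fk). There 8419 genes were added, with a median difference of -0.33, and 6820 of these were lower with Fk. Tested genes of mean level under log2 4 had a median of -0.31 with Ra replicate 2 and -0.02 without it. The fit with no filter was not repeated without that array, so its part in this total was not tested. With array weights the total was 2694 (1339 and 1355). On the 6 arrays alone 0 genes were called in limma, with 2377 at an unadjusted p under 0.05. Without centring 1721 were higher and 241 lower. With the replicate block it was 2862 (1236 and 1626). Leaving out 1 array gave 365 to 2431 genes, 184 to 948 higher and 181 to 1520 lower. Alternatives chosen after seeing the data gave 3418 with a block within set and time (1487 and 1931), 535 with quantile normalization without Ra replicate 2 (262 and 273), 364 with the 18 arrays without Ra replicate 2 (199 and 165), 1289 with array weights without it (695 and 594), and 1895 with the block within set and time without number 2 at 48 h (890 and 1005). The 158 genes of the time contrast were 94 with no filter, 18 on the 18 arrays, 2165 with weights, 1185 with the block, 300 with the block on 18 arrays, 9 to 728 with 1 array left out, 1739 with the block within set and time, 1057 with that block without number 2 at 48 h, 998 with weights without Ra replicate 2, 11 with quantile normalization without it and 15 on the 18 arrays without it. Some of these fits hold fewer arrays or more genes; the cause of the other changes was not tested.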
